A study of Mus musculus with 6 samples.

Results

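The 8 mature microRNA arms described here belong to microRNAs known from the choroid plexus, from ciliated epithelium and from epithelium in general: miR-204-3p, miR-211-3p, miR-449a-5p, miR-200a-3p, miR-200a-5p, miR-200b-3p, miR-200b-5p and miR-429-5p. They are all mature arms of miR-204, miR-211, miR-448, miR-449a, miR-449b, miR-449c, miR-200a, miR-200b and miR-429 among the 2380 RNAs, 1136 of them mature microRNAs, that the authors' deposited table names. The rule itself uses names and no measured value, but the set was proposed with earlier results of these data known. Hippocampi of PS19 mice, transgenic for human tau carrying P301S, were compared with those of wild-type (WT) controls, on 3 arrays per genotype. Crosslinked complexes were pulled down with an antibody to tau phosphorylated at serine 396 (pS396) in both genotypes, and on each array the pulled-down RNA (CLIP, red) was hybridised together with the RNA left in the supernatant (green). The labels give neither the age of the mice, nor the promoter of the transgene, nor the number of animals behind a sample, so the p-values measure the spread between these samples.

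The choroid plexus is the secretory epithelium of the ventricles that makes cerebrospinal fluid, and that of the lateral ventricle lies next to the hippocampus. miR-204 and miR-211 are paralogues, and the 5p arm of miR-204 is known as an abundant microRNA of choroid plexus and retinal pigment epithelium. miR-448 lies in the gene of the serotonin receptor Htr2c, which choroid plexus epithelium expresses strongly. The miR-449 family is known for its role in cells with many motile cilia, where it acts with the related miR-34 family. The miR-200 family keeps cells epithelial by repressing Zeb1 and Zeb2, and is scarce in most of the brain outside the olfactory system. A microRNA binds its targets mainly through its seed, bases 2 to 8 from the 5′ end.

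The mature sequences are shown because the seeds sort the members into groups. In the RefSeq table of build GRCm38.p6 all 8 members had an entry, and the seed is in capitals in each line below.
miR-204-3p, chr19:22750649-22750669, plus strand: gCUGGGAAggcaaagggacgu
miR-211-3p, chr7:64205868-64205888, plus strand: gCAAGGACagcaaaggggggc
miR-449a-5p, chr13:113037549-113037570, plus strand: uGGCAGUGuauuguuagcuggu
miR-200a-3p, chr4:156054911-156054932, minus strand: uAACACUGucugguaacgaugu
miR-200b-3p, chr4:156055685-156055706, minus strand: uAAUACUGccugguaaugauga
miR-200a-5p, chr4:156054949-156054970, minus strand: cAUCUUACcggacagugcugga
miR-200b-5p, chr4:156055721-156055742, minus strand: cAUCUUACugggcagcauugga
miR-429-5p, chr4:156053954-156053974, minus strand: gUCUUACCagacaugguuaga
Outside the 8, miR-141-3p (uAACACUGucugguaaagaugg, chr6:124717917-124717938, minus strand) carried the seed of miR-200a-3p and matched it at 20 of 22 bases. miR-34b-5p (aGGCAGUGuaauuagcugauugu, chr9:51103610-51103632, minus strand) carried the seed of miR-449a-5p.

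The 5p arms of miR-200a and miR-200b shared 1 seed, whereas their 3p arms, the usual guide strands of the family, differed at 1 of the 7 seed bases. miR-429-5p matched miR-200a-5p at 15 of 21 bases when shifted by 1 base. The precursors of miR-429, miR-200a and miR-200b lay within 1846 bases of chromosome 4, inside the long non-coding RNA gene Gm13648. Mir204 lay within the span of Trpm3, Mir211 within Trpm1 and Mir449a within Cdc20b. miR-211-3p and miR-204-3p each held 10 guanines, against a median of 6 over 1674 distinct mature mouse sequences, and miR-211-3p had a run of 6 guanines, which 0.239% of those sequences have.

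The label could be checked only in part. The arms by which choroid plexus is usually recognised, miR-204-5p and miR-211-5p, and the mature arms of miR-448, miR-449b and miR-449c were not analysed here. For miR-204 and miR-211 the arms named in the authors' deposited table were the 3p arms, usually the minor strands. For miR-200a and miR-200b both arms were named, and for miR-429 only the usually minor 5p arm. A further 8555 probes could not be given a name. Of 9 neuronal microRNA arms (of miR-9, miR-124, miR-128, miR-132 and miR-138), 5 were well above background in the supernatant of all 6 arrays, as were both oligodendrocyte arms, 2 of 3 erythroid arms and 1 of 2 muscle arms, against 77.5% of all mature names. In whole tissue, fewer cells of a type and less RNA per cell cannot be told apart, and which cells the 8 RNAs came from was not tested.

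The arrays differed in how much could be seen. In the CLIP channel 10.6% to 49.4% of the probes were well above background, with WT 1 and WT 3 lowest, and in the supernatant 35.5% to 63.2% were. An RNA counted as well above background on an array where at least 1 of its probes was. All 8 members were well above background in CLIP on WT 2, PS19 1, PS19 2 and PS19 3, 5 of them on WT 3, and 1, miR-211-3p, on WT 1. On WT 3 this held for 2 of the 5 probes of miR-200a-5p and of miR-429-5p. There it held for 4 of 5 probes of miR-200b-5p and for all 5 of miR-204-3p and of miR-211-3p. Of all 1136 mature microRNA names, 29.8% were above background on WT 1, 69.4% on WT 3 and between 91.7% and 98.5% on the other arrays. All 2380 named RNAs, 100%, were above background in CLIP on at least 3 of the 6 arrays, so a member's detection on that many arrays shows nothing about it. In the supernatant 7 or 8 members were above background on each array. miR-211-3p was the 1 member above background in CLIP on all 6 arrays, as were 28.9% of the mature names, and 5 of the 8 members were so in the supernatant, against the 77.5% given above. WT 2 and PS19 1 were scanned together, as were PS19 2 and PS19 3, and WT 1 and WT 3 were each scanned alone. The red and green detector voltages were 386 and 304 on WT 1 and 421 and 288 on WT 3. On every other array they were 420 and 355. The part of these settings in the levels was not tested. In CLIP the arrays of a scan correlated by 0.984 and 0.985, and other pairs by 0.90 at most.

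The raw CLIP signal reached at most 6.16 times the local background for miR-204-3p and 4.08 times for miR-200b-5p. For the other members except miR-211-3p it was at most 2.69 times the background. For miR-211-3p the raw signal was 3.71 to 37.8 times the background in CLIP and 35.0 to 75.9 times in the supernatant. Both channels were analysed as log2 levels on a scale where 0 is the 75th percentile of the RNAs detected on each of the 6 arrays, and as the log2 ratio of CLIP over supernatant, where 0 is the median RNA of the array. Levels are compared only between arrays, never between members, because the probes differ.

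In the pull-down none of the 8 members passed the test for a difference between genotypes. limma called 0 of 2356 RNAs tested at an adjusted p under 0.05 (0% of all RNAs), and 45 RNAs (1.91%) were higher and 6 (0.255%) lower at an unadjusted p under 0.05, 0 of the 8 members among them. All 8 mean CLIP levels were higher in PS19, by 0.67 to 1.57 on the log2 scale, but the median RNA was higher by 0.85 as well. Relative to that median the 8 differences ran from -0.18 to 0.72, with a median of 0.09 and 5 above 0. The median shift depends on the scaling, from -0.04 where every probe enters the percentile to 1.17 without scaling, and CLIP differences are read relative to it.

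Of the 3p arms of miR-211 and miR-204, miR-211-3p had CLIP levels of -1.50, 0.91 and 0.71 on WT 1 to WT 3 and 0.85, 0.59 and 0.70 on PS19 1 to PS19 3. WT 1 stood below the other arrays, which lay close together, and the genotypes overlapped. The difference of 0.67 (SE 1.04, 95% interval -1.36 to 2.70, adjusted p = 0.777) became -0.10 without WT 1. Relative to the median RNA it was -0.18, then -0.72 without WT 1 and 0.59 with normexp background correction.

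For miR-204-3p the CLIP level was -4.76, -2.07 and -3.54 in WT and -1.95, -2.97 and -2.95 in PS19. WT 1, where it was not well above background, was again the lowest array, and WT 2 lay beside PS19 1 at the top. The difference of 0.83 (SE 1.04, adjusted p = 0.773) was -0.02 relative to the median RNA.

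The ciliated-cell microRNA miR-449a-5p had CLIP levels of -6.43, -5.28 and -7.51 in WT and -4.66, -4.99 and -4.84 in PS19. Every PS19 array was above every WT array, which was so with PS19 higher for 4.33% of all RNAs tested and for 2 of the 8 members. It was well above background on 1 WT array and on all 3 PS19 arrays. The difference of 1.57 (SE 1.04, 95% interval -0.46 to 3.61, adjusted p = 0.773) did not pass. Relative to the median RNA it came to 0.72, to 0.89 with WT 1 and WT 3 left out, and to -0.06 with normexp background correction.

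miR-200a-3p, a guide strand of the epithelial family, was the other member without overlap in CLIP, at -5.82, -4.63 and -6.42 in WT and -3.98, -4.48 and -4.14 in PS19. It too was above background on 1 WT array only, WT 2, which lay 0.15 below the lowest PS19 array. The difference was 1.42 (SE 1.04, 95% interval -0.61 to 3.45, adjusted p = 0.773). Relative to the median RNA it was 0.57, and 0.08 with normexp background correction. Within the scan that held both genotypes, PS19 1 lay above WT 2 by 0.65 for miR-200a-3p and by 0.62 for miR-449a-5p, against 0.13 for the median RNA.

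The other guide strand, miR-200b-3p, had CLIP levels of -6.39, -4.72 and -7.15 in WT and -5.36, -4.94 and -5.36 in PS19. WT 2 was the highest array and the genotypes overlapped. The difference of 0.87 was 0.02 relative to the median RNA, and within the shared scan PS19 1 lay 0.64 below WT 2.

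The 5p arms of the chromosome 4 cluster also followed the arrays. miR-200a-5p was at -6.19, -4.13 and -6.12 in WT and at -4.29, -4.55 and -4.56 in PS19. miR-200b-5p was at -5.41, -2.90 and -4.93 in WT and at -2.85, -3.39 and -3.59 in PS19, and miR-429-5p at -5.94, -3.76 and -5.88 in WT and at -3.77, -4.91 and -4.78 in PS19. In all 3 arms WT 2 lay within or above the PS19 range and WT 1 and WT 3 lay below it. Relative to the median RNA the differences were 0.16, 0.29 and -0.14, with adjusted p between 0.773 and 0.775. Over the 8 members, the lowest CLIP level was on WT 1 for 5 and on WT 3 for 3, and the highest was on WT 2 for 4 and on PS19 1 for 4. With WT 1 and WT 3 left out, the CLIP difference turned negative for 6 members, all but miR-449a-5p and miR-200a-3p, and the median RNA then differed by -0.44. The part of background and of the scan in these differences was not tested.

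**Figure D1:**
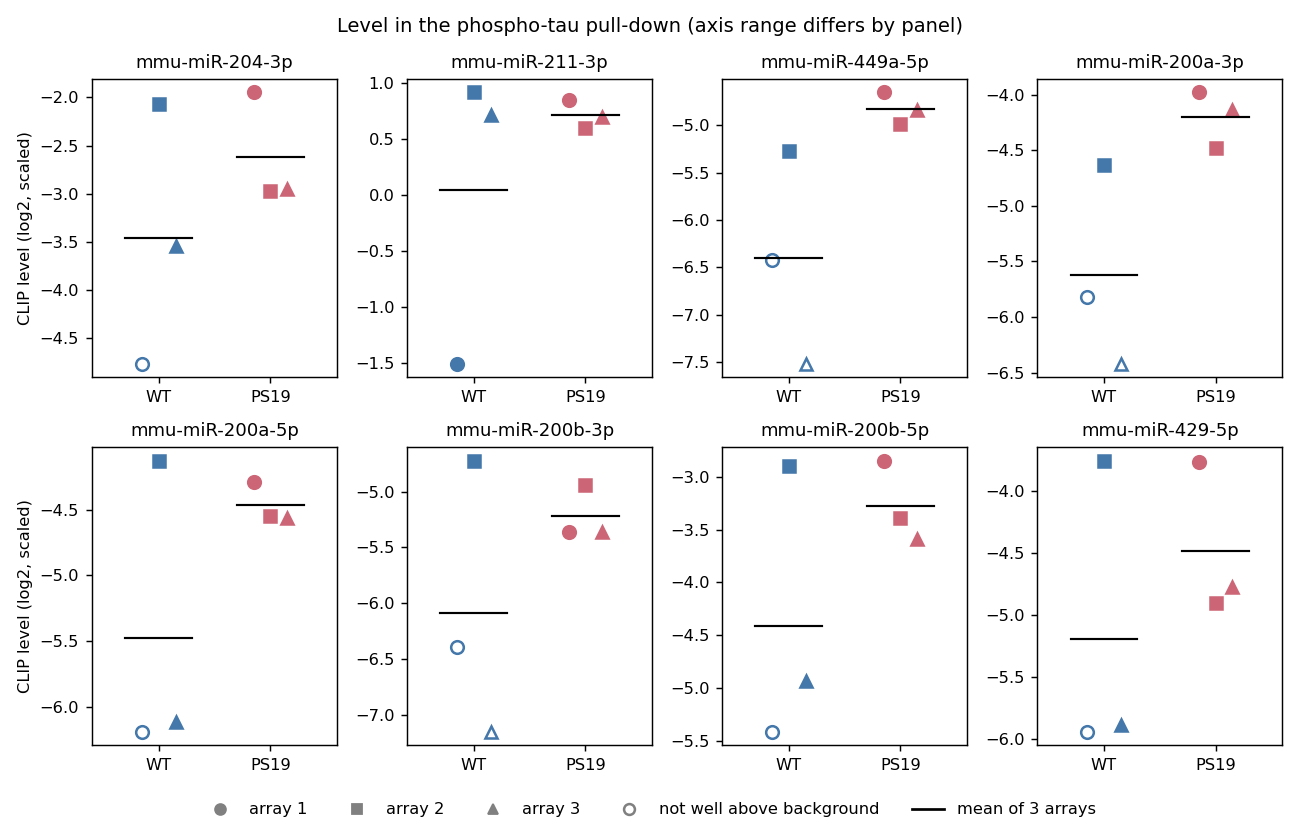
CLIP level of each member on the 6 arrays (y axis, log2, 0 is the 75th percentile of RNAs detected on all arrays; x axis, genotype). Symbols stand for arrays 1 to 3 of a genotype, open symbols for signals not well above background, and lines for the mean of 3 arrays; WT 1 or WT 3 is the lowest point in every panel.

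In the supernatant none of the 8 members passed either (0 of 3727 RNAs called, 0%, with 65 higher and 39 lower at an unadjusted p under 0.05). The median RNA differed by 0.10, and 7 of the 8 members lay above it, with a median difference of 0.32. miR-200a-3p was the member with an unadjusted p under 0.05, which 1.74% of all RNAs had in that direction.

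The supernatant level of miR-200a-3p was -3.81, -1.66 and -3.53 in WT and -1.02, -1.51 and -1.68 in PS19. WT 1 and WT 3 lay below the other 4 arrays, and WT 2 lay between the PS19 arrays, so the genotypes overlapped. The difference was 1.59 (SE 0.61, 95% interval 0.12 to 3.07, adjusted p = 0.928 in limma). It was 0.64 within the shared scan and 0.26 with WT 1 and WT 3 left out. This RNA rested on 1 probe, whereas miR-141-3p, with the same seed and 5 probes, differed by 0.19 (SE 0.29).

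The supernatant level of miR-200a-5p, from the same precursor, was -2.46, -2.50 and -2.66 in WT and -2.44, -2.03 and -1.90 in PS19. All PS19 arrays were above all WT arrays, PS19 1 by a gap of 0.01 over WT 1, as was so with PS19 higher for 7.32% of all RNAs tested and for 1 of the 8 members. The difference was 0.41 (SE 0.29, 95% interval -0.29 to 1.11, adjusted p = 0.928), and 0.06 within the shared scan.

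For miR-449a-5p the supernatant level was -3.12, -3.74 and -4.08 in WT and -3.20, -3.19 and -2.78 in PS19, and WT 1 lay inside the PS19 range. The difference was 0.59 (SE 0.36, 95% interval -0.27 to 1.45, adjusted p = 0.928). Its 4 probes gave differences of 0.14 to 1.13, all in the same direction.

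miR-200b-5p was at -1.80, -1.30 and -1.67 in WT and at -1.36, -1.10 and -1.15 in PS19, a difference of 0.39 with WT 2 inside the PS19 range. miR-200b-3p was at -2.98, -3.54 and -3.33 in WT and at -3.61, -2.61 and -3.32 in PS19. Its PS19 arrays lay on both sides of the WT arrays, and its difference was 0.10. miR-429-5p, at -2.23, -2.35 and -2.03 in WT and -2.38, -2.28 and -2.51 in PS19, was the member with a lower mean in PS19, by -0.19 with the genotypes overlapping.

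Of the 3p arms of miR-211 and miR-204, miR-211-3p was at 2.50, 2.72 and 3.67 in WT and at 2.67, 3.59 and 3.38 in PS19. WT 3 was its highest array and WT 1 its lowest, and the difference was 0.25 (95% interval -0.81 to 1.31). miR-204-3p was at -1.02, -0.23 and -0.60 in WT and at -0.29, -0.45 and -0.51 in PS19, with the PS19 arrays inside the WT range and a difference of 0.20 (95% interval -0.56 to 0.96).

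**Figure D2:**
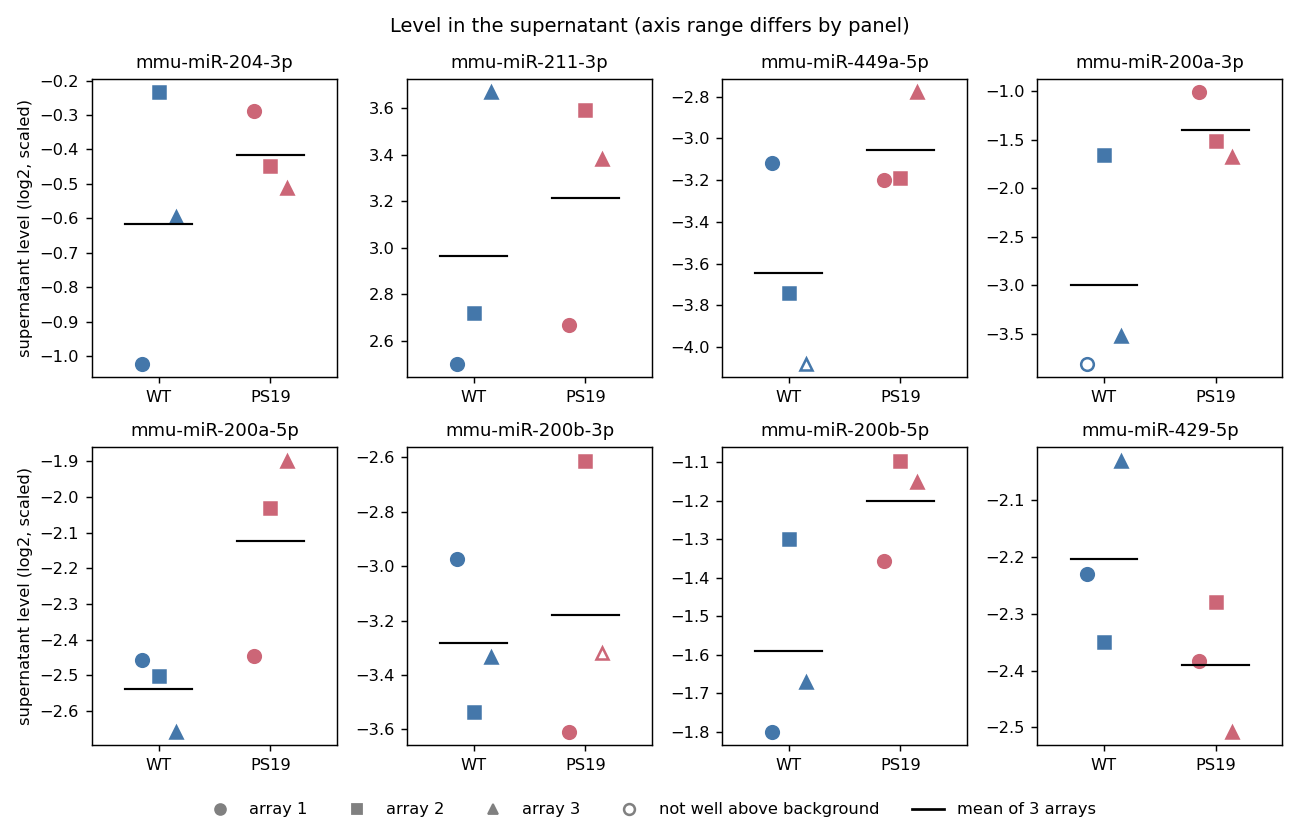
Supernatant level of each member on the 6 arrays (y axis, log2, scaled as the CLIP level; x axis, genotype), with symbols as in the plot of CLIP levels. For miR-200a-3p, WT 1 and WT 3 lie apart from the other 4 arrays, while for miR-200a-5p all PS19 arrays lie above the WT arrays.

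The ratio of CLIP over supernatant on the same array compares the pull-down signal of an RNA with its supernatant signal, relative to the median RNA. All arrays used the same antibody, so binding to phosphorylated tau and unspecific recovery cannot be told apart. No member passed as higher or lower than the median RNA: limma called 3 of 3971 RNAs within WT (0.0755%) and 4 within PS19 (0.101%), none of them a member. Between genotypes 0 RNAs were called (0%), and an unadjusted p under 0.05 was reached by 83 RNAs with PS19 higher and 81 with PS19 lower. Of the 48 member ratios, 41 lay within 0.5 log2 units of the median RNA. The share of all RNAs this close was not counted, so this shows nothing particular to the members. A ratio above the median RNA on all 6 arrays was seen for 4.61% of all RNAs and one below it for 4.16%, and 0 of the 8 members were in either set. On all 3 PS19 arrays, 4 members (miR-200a-3p, miR-200a-5p, miR-204-3p and miR-211-3p) lay below the median RNA and 1, miR-449a-5p, lay above it, against 16.6% and 16.2% of all RNAs. On all 3 WT arrays 0 members lay below it and 0 above it, against 14.6% and 14.1% of all RNAs, and whether the genotypes differ in these counts was not tested. On WT 1 every member but miR-211-3p, and on WT 3 miR-449a-5p, miR-200a-3p and miR-200b-3p, had CLIP signals not well above background, so those ratios rest on signals near background. The dyes were not swapped, so a probe's constant dye effect stays in its ratio and cancels in the difference between genotypes.

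miR-211-3p, well above background in both channels on all 6 arrays, had ratios of -0.63, -0.15 and 0.40 in WT and -0.22, -0.56 and -0.35 in PS19. Only WT 3 lay above the median RNA. The WT mean was -0.13 ± 0.51 (SD, n = 3), the PS19 mean was -0.38 ± 0.17 (SD, n = 3), and the difference was -0.25 (95% interval -1.09 to 0.59, adjusted p = 0.993).

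miR-204-3p gave -0.36, -0.17 and 0.41 in WT and -0.06, -0.08 and -0.10 in PS19, again with WT 3 as the one array above the median RNA. The PS19 arrays lay within a narrow band inside the WT range, and the difference was -0.04 (95% interval -0.80 to 0.72).

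miR-449a-5p gave 0.07, 0.12 and -0.08 in WT and 0.15, 0.64 and 0.27 in PS19. Every PS19 array was above every WT array, by a gap of 0.02, as was so for 4.18% of all RNAs tested and for 1 of the 8 members. The difference was 0.32 (SE 0.30, 95% interval -0.38 to 1.02, adjusted p = 0.993), and within the shared scan it was 0.02.

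miR-200a-3p had the widest spread, with ratios of 1.36, -1.32 and 0.46 in WT and -1.36, -0.53 and -0.13 in PS19. WT 2 and PS19 1, which shared a scan, had nearly the same ratio, and WT 1 lay at the other end. The difference was -0.84 (SE 0.70, 95% interval -2.47 to 0.78, adjusted p = 0.993), and it was 0.64 with WT 1 and WT 3 left out. On WT 1 and WT 3 its CLIP signal was not above background, and neither was its supernatant signal on 1 WT array.

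The other ratios of the chromosome 4 cluster stayed near the median RNA. miR-200b-3p gave -0.04, 0.47 and -0.46 in WT and -0.15, 0.11 and 0.29 in PS19. miR-200a-5p gave -0.35, 0.03 and -0.11 in WT and -0.24, -0.08 and -0.33 in PS19, below the median RNA on 5 of 6 arrays. miR-200b-5p gave -0.23, 0.06 and 0.09 in WT and 0.11, 0.15 and -0.10 in PS19, and miR-429-5p -0.33, 0.25 and -0.50 in WT and 0.21, -0.19 and 0.06 in PS19. The genotypes overlapped for all 4 arms, and the differences ran from -0.07 for miR-200a-5p to 0.22 for miR-429-5p.

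**Figure D3:**
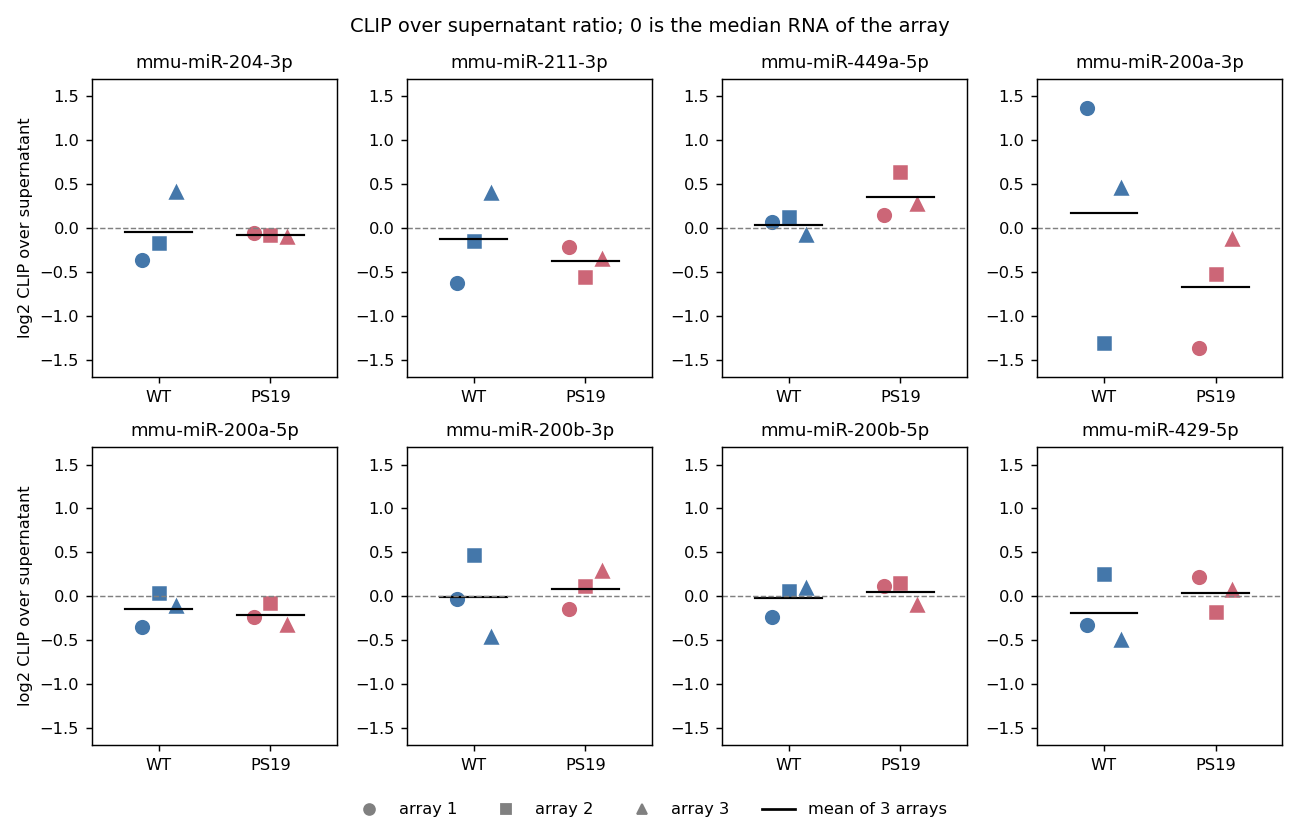
Log2 ratio of CLIP over supernatant of each member on the 6 arrays (y axis, the dashed line at 0 is the median RNA of the array; x axis, genotype), with symbols for arrays 1 to 3 and lines for the mean. Apart from miR-200a-3p, which spans -1.36 to 1.36, the ratios lie between -0.63 and 0.64.

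**Figure D4:**
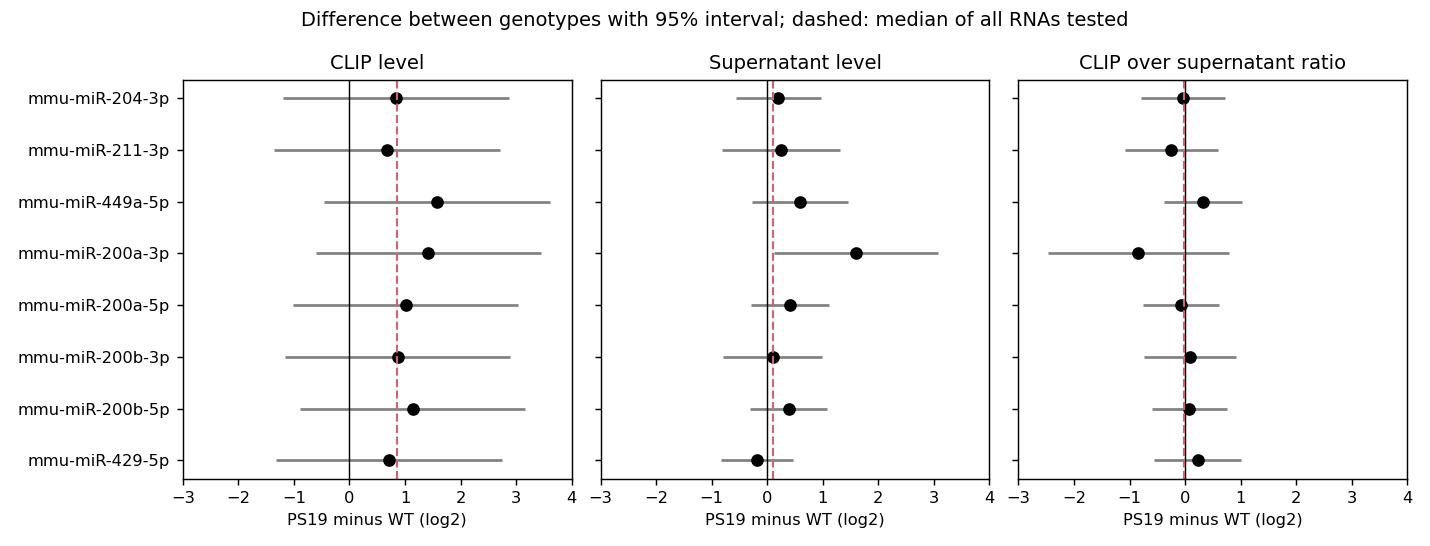
Difference between genotypes (x axis, PS19 minus WT, log2) of each member in the CLIP level, the supernatant level and the ratio, as points with 95% intervals from limma. The dashed line is the median of all RNAs tested, at 0.85 in CLIP, 0.10 in the supernatant and -0.02 in the ratio; the interval of miR-200a-3p in the supernatant, 0.12 to 3.07, is the one that does not cover 0.

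The members moved together across the 6 arrays in CLIP and not in the ratio. The 28 pairwise Pearson correlations over the 6 arrays ran from 0.37 to 0.99 in CLIP, with a median of 0.87. They ran from -0.76 to 0.88 in the supernatant and from -0.83 to 0.89 in the ratio, with medians of 0.25 and 0.05. The points share scans and the low detection on WT 1 and WT 3, and the values are a description. Correlations between other RNAs in CLIP were not computed, so the values there show nothing particular to the members. Among the 5 arms of the chromosome 4 cluster the correlations ran from 0.82 to 0.98 in CLIP, but from -0.73 (miR-200a-3p with miR-429-5p) to 0.88 (miR-200a-3p with miR-200b-5p) in the supernatant. miR-200a-5p and miR-200b-5p, which share a seed, correlated by 0.75 in the supernatant, and miR-429-5p correlated with each of them by -0.68. miR-211-3p and miR-204-3p correlated by 0.86 in CLIP and by 0.12 in the supernatant.

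For the 5 members above background in the supernatant of all 6 arrays, the named RNAs with the most similar supernatant levels, out of 1601, are given as a description over 6 arrays. For miR-211-3p these were miR-6349, 3'tiRNA-41-LysTTT-4 and miR-3960, with Pearson r from 0.993 to 0.994. For miR-204-3p they were miR-6416-3p, miR-7235-5p and miR-1249-5p (0.975 to 0.980). miR-200b-5p was closest to miR-2861, tRF5-22-LeuAAG-1 and miR-7028-5p (0.973 to 0.990), miR-200a-5p to miR-6715-3p, miR-667-5p and miR-6909-3p (0.959 to 0.966), and miR-429-5p to miR-12193-5p, miR-763 and miR-878-5p (0.942 to 0.972). No member was among the RNAs closest to another. Between 22 and 77 of the 1601 RNAs reached an r of 0.9 with each member, so such a value is not unique to the RNAs named. The median r of a member with the 1601 RNAs lay between -0.16 and 0.26.

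Precursor probes were named for 3 of the microRNAs, mir-204, mir-448 and mir-449a, each with 1 probe. Between genotypes none of the 3 passed in CLIP, supernatant or ratio, with adjusted p of at least 0.773. The precursor mir-204 had ratios of 1.37, 1.04 and 0.36 in WT and 0.90, 0.12 and 0.72 in PS19, above the median RNA on all 6 arrays, as were 4.61% of all RNAs. On WT 3 its CLIP signal was not well above background. Its WT mean of 0.92 (SE 0.28) had an adjusted p of 0.522 and did not pass. The mature arm miR-204-3p was below the median RNA on 5 of the same arrays.

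The mir-448 precursor, the one feature of this microRNA among the names, had supernatant levels of 3.81, 0.70 and -0.85 in WT and 1.27, 1.28 and 0.63 in PS19. WT 1 and WT 3 were its highest and lowest arrays, and its ratio was 0.14, -0.27 and 1.32 in WT and -0.50, -0.23 and 0.40 in PS19. The precursor mir-449a gave supernatant levels of 1.44, 0.26 and -5.33 in WT and 0.35, 0.69 and 0.13 in PS19. On WT 3 it was not well above background in either channel, so its ratio of 1.41 there compares background with background, and its supernatant difference of 1.60 (SE 1.67, adjusted p = 0.928) rests on that array.

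**Figure D5:**
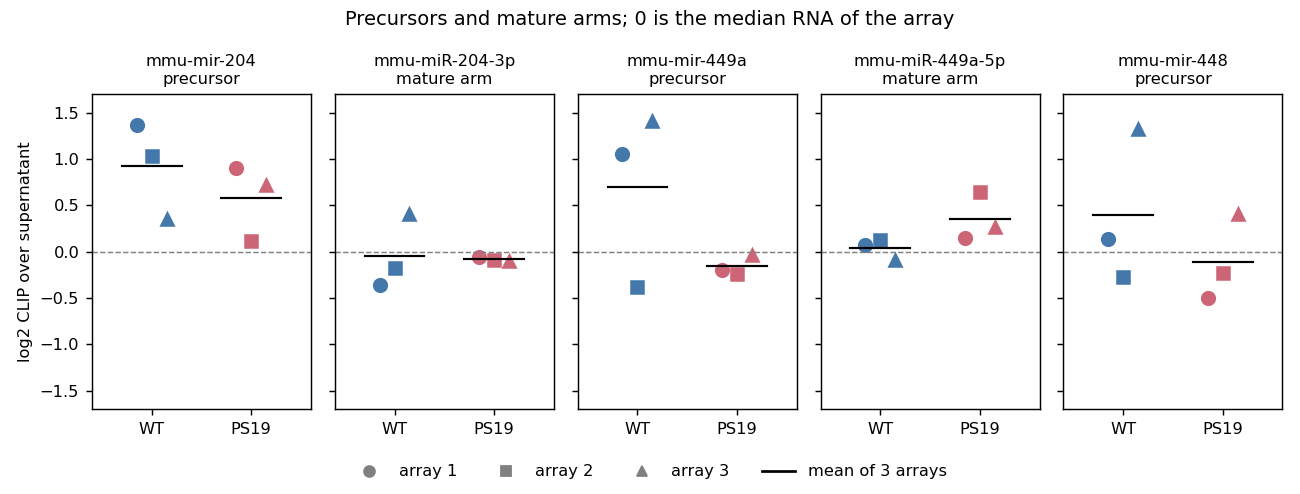
Log2 ratio of CLIP over supernatant (y axis, 0 is the median RNA of the array) of the 3 precursor probes and of the mature arms from the same precursors, by genotype (x axis), with symbols for arrays 1 to 3 and lines for the mean. The mir-204 precursor lies above 0 on all 6 arrays, and miR-204-3p lies above 0 on WT 3 alone.

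A list of 10 related arms was examined next to the members: miR-34b-5p, both arms of miR-141, miR-200c, miR-205 and miR-183, and miR-375-3p. None of the 10 passed between genotypes in CLIP, supernatant or ratio, and none was called within a genotype. Their median CLIP difference was 0.10 relative to the median RNA, close to the 0.09 of the members. miR-183-5p, a microRNA of sensory cells, had ratios of 0.86, 1.66 and 0.84 in WT and 2.72, 1.07 and 1.91 in PS19. It lay above the median RNA on all 6 arrays, as did 4.61% of all RNAs. Its PS19 mean was 1.90 (SE 0.35, adjusted p = 0.225) and its WT mean 1.12 (SE 0.35, adjusted p = 0.522), and its signal was not above background in CLIP on WT 1 and in the supernatant on PS19 2 and PS19 3.

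miR-375-3p, known from endocrine and epithelial cells, was above background in CLIP on no WT array and on all 3 PS19 arrays. Its levels were -6.06, -5.77 and -7.45 in WT and -4.40, -5.27 and -5.34 in PS19. Its raw CLIP signal was 1.2 to 1.67 times the local background in WT and 1.79 to 2.07 times in PS19. The share of all RNAs with this detection pattern was not counted, and WT 1 and WT 3 detected only 29.8% and 69.4% of mature names in CLIP. The difference of 1.42 for miR-375-3p (SE 1.04, adjusted p = 0.773 in limma), from 1 probe, did not pass and was 0.57 relative to the median RNA. With each WT array's signal raised to the dimmest detected signal where that was higher, the PS19 mean was 2.27-fold higher (1.18 in log2). This value is taken before the median shift of 0.85 is removed, and is no lower limit for the genotypes. In the authors' deposited table the log2 fold change of miR-375-3p was 0.62. The guide-strand relative miR-34b-5p, with the seed of miR-449a-5p, had supernatant levels of -2.88, -2.97 and -3.35 in WT and -2.73, -2.52 and -2.50 in PS19. Its groups did not overlap, with PS19 higher, as was so for 7.32% of all RNAs tested and 1 of the 10 related arms. Those of miR-449a-5p did overlap. The difference of 0.48 for miR-34b-5p (SE 0.28, adjusted p = 0.928 in limma), from 1 probe, did not pass.

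In the authors' deposited table, on the scale of their CLIP values, the log2 fold changes of PS19 over WT in CLIP were 0.78 for miR-449a-5p and 0.62 for miR-200a-3p, with p-values of 0.205 and 0.367. In the authors' deposited table the other 6 members lay between -0.13 and 0.34, and the false discovery rate of every member was 0.999.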

How the data were processed

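Each array was hybridised with Cy5-labelled CLIP RNA (red) and Cy3-labelled supernatant RNA (green), 1 ug each, per the labels' protocols. Per the file headers, the deposited scanner files were made with Agilent Feature Extraction 11.0.1.1. Their processed intensity, as deposited, has the background taken off and the dyes balanced within the array. The authors' second deposited file lists log2 CLIP values, equal on each array to the red processed signal less a constant; how that constant was set is not given in the sources used here. The deposited comparison table gives log2 fold changes with p-values and false discovery rates, in the direction PS19 minus WT.

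Names were tied to probes where fold changes and p-values recomputed from the probes equalled the deposited ones within 1e-09 (log2) and 1e-07, among 557616 sets of up to 5 neighbouring probes; each of the 2380 names matched 1 set. The members have 32 probes in all, and log2 signals were averaged over probes. Detection was not averaged: at least 1 probe well above background was enough. No member spot was saturated or an outlier. Levels were scaled by the 75th percentile of those RNAs of an array that were detected on all 6 (550 in red and 1703 in green), and ratios were centred on the array's median. RNAs well above background on at least 3 arrays, with at least 2 values per genotype, were tested with limma 3.58.1 (R 4.3.3, lmFit and eBayes, 1 mean per genotype) and adjusted over all RNAs tested by Benjamini-Hochberg. The fits were tested on simulated data. In the CLIP fit limma pooled the spread fully over RNAs, so all have the same standard error.

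The members, the related list and the marker lists were chosen with earlier results of these data known. Named were all members, the precursors, up to 6 related RNAs per measure with the smallest p, and for each member above background in the supernatant of all 6 arrays the 3 RNAs most like it. Replicate numbers did not pair the samples. The number of arrays limits the precision. Alternatives covered background correction, scaling, filters, the variance model, scan and replicate blocks, probe averaging, the authors' values and left-out arrays; leaving out both WT 1 and WT 3 was added after seeing the data. No unmapped column of per-sample values was used.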

Additional observations from a re-analysis of the deposited data

How the results depend on the processing

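In the CLIP level, the supernatant level and the ratio, 0 of the members tested were called under each alternative run. All 8 were tested except with the filter on all 6 arrays, which left 1 in CLIP, 5 in the supernatant and 6 in the ratio. The lowest adjusted p of any member was 0.0851, without WT 2, and 0.0906 with array quality weights. Replicate numbers did not pair the samples (correlations of deviations from the group means ran from -0.58 to 0.58), and with the replicate block 0 RNAs were called in CLIP; the difference of miR-449a-5p was again 1.57. Of 420 differences between genotypes recomputed for members, 360 kept their direction. This count includes settings that cannot change an estimate, such as the variance trend, with 1.57 again for miR-449a-5p in CLIP. In CLIP it also takes directions before the shift of the median RNA is removed. It is therefore no measure of how stable the differences are. Over all RNAs, the CLIP count of 0 calls became 5 with normexp (offset 50), 36 with array weights, 18 with scan as a random block and up to 2 with an array left out. Calls within WT (3) became 0 with the filter on all 6 arrays, a variance trend or WT 1 and WT 3 left out, and 0 to 3 with 1 array left out. Those within PS19 (4) became 0 with normexp and under the same 3 settings, 2 with scan as a random block, and 2 to 4 with 1 array left out.

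Directions that turned, all for differences that had not passed, follow by measure, in log2 units. The cause was not tested. The CLIP values in this list are taken before the shift of the median RNA is removed. That shift was 0.85 in the main run, -0.10 with normexp, -0.44 without WT 1 and WT 3 and -0.04 with the percentile over all probes. With the authors' values it was 0.05, and with scan as a random or fixed block 0.17 or 0.13. A turn in CLIP is therefore not a turn relative to the median RNA. In CLIP with normexp: miR-449a-5p -0.16, miR-200a-3p -0.02, miR-200a-5p -0.12, miR-429-5p -0.16 and miR-200b-3p -0.23. In CLIP without WT 1 and WT 3: miR-200b-5p -0.38, miR-200a-5p -0.34, miR-429-5p -0.73, miR-200b-3p -0.50, miR-211-3p -0.20 and miR-204-3p -0.56. In CLIP with the percentile over all probes: miR-429-5p -0.19, miR-200b-3p -0.03, miR-211-3p -0.23 and miR-204-3p -0.06, and with the authors' values miR-429-5p -0.09 and miR-211-3p -0.13. In CLIP with scan as a random block: miR-200a-5p -0.10, miR-200b-3p -0.56 and miR-211-3p -0.03, and as a fixed block -0.16, -0.64 and -0.07 for the same 3 and -0.01 for miR-429-5p. With 1 array left out, miR-211-3p in CLIP ran from -0.10 to 1.11.

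In the supernatant with scan as a fixed block: miR-200b-5p, miR-211-3p and miR-204-3p -0.05 each and miR-200b-3p -0.07, which was -0.02 as a random block. miR-429-5p was 0.58 unscaled and 0.26 with normexp; with the percentile over all probes miR-200b-3p was -0.12 and miR-204-3p -0.02, the latter -0.18 without WT 1 and WT 3. With 1 array left out, miR-200b-3p ran from -0.18 to 0.32 and miR-204-3p from 0 to 0.39. In the ratio with normexp: miR-449a-5p -0.09, miR-200a-5p 0.03, miR-200b-3p -0.10, miR-211-3p 0.96 and miR-204-3p 0.42; uncentred, miR-200a-5p was 0.15 and miR-204-3p 0.18. In the ratio without WT 1 and WT 3: miR-200a-3p 0.64, miR-200b-5p -0.01, miR-429-5p -0.22, miR-200b-3p -0.39 and miR-204-3p 0.09. With scan as a fixed block the ratio was -0.03 for miR-429-5p, -0.62 for miR-200b-3p and 0.11 for miR-204-3p, and as a random block -0.06 for miR-200b-3p. With 1 array left out, the ratio ran from -0.03 to 0.16 for miR-200b-5p, -0.18 to 0.02 for miR-200a-5p, -0.13 to 0.34 for miR-200b-3p, -0.50 to 0.01 for miR-211-3p and -0.20 to 0.19 for miR-204-3p.

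Signals near background limit the members other than miR-211-3p, in CLIP above all on WT 1 and WT 3. On WT 1, 7 of the 8 members were not well above background in CLIP. With 3 arrays per genotype, and 4 of the 6 in shared scans, genotype and scan can be separated only between WT 2 and PS19 1.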
